A study of Homo sapiens with 21 samples.

Results

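The genes described here are the long intergenic noncoding RNA genes that carry a LINC symbol with 5 digits and were read often enough to be followed in every group. They were selected on measured values: of 28395 Entrez gene rows in the count table, 1321 had such a symbol in RefSeq, and 125 of these reached a raw count of at least 50 when averaged over all 21 libraries. The other 1196 LINC rows lay under that limit, 449 of them at 0 in every library. The last members inside the limit were LINC01410 with a mean of 50.6 counts, LINC01145 with 50.9 and LINC01730 with 51.0, and the first genes outside it were LINC01477 with 49.1, LINC00115 with 47.3 and LINC00506 with 45.5.

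The libraries came from Hs578T, an established line of triple-negative breast cancer cells, in which RNA was collected 8 h after drug treatment in order to see which transcripts respond when inhibition of the transcriptional kinases CDK12 and CDK13 is combined with a tyrosine kinase inhibitor. There were 7 groups of 3 libraries: the solvent DMSO alone, 0.1 µM THZ531, 1 µM THZ531, 3.16 µM lapatinib, 1 µM nilotinib, 0.1 µM THZ531 with 3.16 µM lapatinib (the lapatinib combination) and 0.1 µM THZ531 with 1 µM nilotinib (the nilotinib combination). THZ531 is a covalent inhibitor of CDK12 and CDK13, lapatinib inhibits EGFR and HER2, and nilotinib inhibits ABL, KIT and PDGF receptor kinases. All values concern this 1 cell line at 1 time after treatment, and in these bulk libraries fewer cells with a transcript and less of it per cell cannot be told apart.

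LINC is the name given to long noncoding RNA genes that lie between protein-coding genes and have no better-known function to be named after. Most are transcribed by RNA polymerase II, capped, spliced and polyadenylated like messenger RNA, but they are usually expressed at low levels, in few cell types, and many of their transcripts stay in the nucleus where the RNA exosome can degrade them. CDK12 and CDK13 phosphorylate the C-terminal domain of RNA polymerase II during elongation, and their inhibition is known to favour early cleavage and polyadenylation inside long genes.

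Of the 125 LINC genes, 28 were lower and 17 higher with the lapatinib combination than in DMSO, where 21.3% of all genes tested were lower and 7.9% higher. In all 3 of the strong treatments (both combinations and 1 µM THZ531) 17 members fell, which is 13.6% of them against 15.3% of all genes, and 10 rose, 8.0% against 4.2%. The clearest falls were those of LINC00942 and LINC00339, and the clearest rises those of LINC00472 and LINC01003. Their start regions are shown first, because these 4 genes were picked from both ends of the response and differ in base composition at the start. Each sequence runs 5′ to 3′ on the gene's own strand from 250 bases before to 50 bases after the RefSeq start in GRCh38.p14, and capitals mark a CCAAT box or a GC box (GGGCGG) on either strand. LINC00942 starts on the plus strand (chr12:1500241-1500540), LINC00339 on the plus strand (chr1:22024941-22025240), LINC00472 on the minus strand (chr6:71420696-71420995) and LINC01003 on the plus strand (chr7:152463874-152464173).
LINC00942: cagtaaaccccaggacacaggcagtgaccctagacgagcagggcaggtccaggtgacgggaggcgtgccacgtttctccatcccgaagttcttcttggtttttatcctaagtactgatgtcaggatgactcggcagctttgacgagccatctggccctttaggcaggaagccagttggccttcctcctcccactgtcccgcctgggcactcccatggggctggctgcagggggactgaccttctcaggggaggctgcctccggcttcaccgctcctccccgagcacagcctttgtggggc
LINC00339: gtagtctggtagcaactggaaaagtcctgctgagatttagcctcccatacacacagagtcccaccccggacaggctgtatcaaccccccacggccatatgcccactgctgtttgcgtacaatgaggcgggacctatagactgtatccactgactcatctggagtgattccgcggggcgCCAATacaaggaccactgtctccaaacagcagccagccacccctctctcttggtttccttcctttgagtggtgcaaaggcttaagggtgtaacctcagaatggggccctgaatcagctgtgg
LINC00472: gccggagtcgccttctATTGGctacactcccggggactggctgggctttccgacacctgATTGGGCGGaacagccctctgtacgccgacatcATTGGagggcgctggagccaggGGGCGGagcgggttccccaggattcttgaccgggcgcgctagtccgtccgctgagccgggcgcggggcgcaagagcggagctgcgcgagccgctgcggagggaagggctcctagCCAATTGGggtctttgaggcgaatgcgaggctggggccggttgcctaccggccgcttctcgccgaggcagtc
LINC01003: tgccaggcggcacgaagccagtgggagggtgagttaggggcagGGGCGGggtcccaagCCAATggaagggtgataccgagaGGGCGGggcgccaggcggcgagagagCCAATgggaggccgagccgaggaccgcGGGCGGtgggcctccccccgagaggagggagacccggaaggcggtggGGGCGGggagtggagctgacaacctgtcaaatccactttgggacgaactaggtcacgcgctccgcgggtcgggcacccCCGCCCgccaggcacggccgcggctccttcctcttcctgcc

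The windows of the rising pair held 31 (LINC00472) and 28 (LINC01003) CG dinucleotides and several matches, and the runs ATTGGGCGG and CCAATTGG of LINC00472 each hold a pair of matches that overlap, while those of the falling pair held 11 (LINC00942, no match) and 7 (LINC00339, 1 CCAAT box). Other named genes did not all follow this split. LINC01730, the largest riser with the nilotinib combination, had 5 CG dinucleotides and no match, and LINC00847, which fell, had 14 and GC boxes. RefSeq gave such a window for 96 of the 125 genes. Among the 14 that rose with the lapatinib combination the median window held 25 CG dinucleotides and 71.4% had GGGCGG or its reverse complement CCGCCC, against a median of 7 and 33.3% among the 21 that fell and 9 and 44.3% among the 61 that were not called. Over the promoters of all 12271 tested genes in the same table the median was 25 and the share 66.5%, and over all 27305 promoters it was 14 and 44.6%. CCAAT or ATTGG stood in 57.1% of the rising and 42.9% of the falling genes' windows, in 36.5% of the promoters of tested genes and in 35.7% of all promoters. TATAAA or TTTATA was in 0 of the 14 and 0 of the 21 windows, in 10.4% of the member windows, in 6.53% of the promoters of tested genes and in 12.0% of all promoters. These are counts of letters in fixed windows and no test was run on them.

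The label intergenic held for part of the genes only. By RefSeq spans 57 of 125 overlapped no other gene, 12 overlapped a protein-coding gene and 56 overlapped only another noncoding gene or pseudogene. In GENCODE v44, which had 119 of them, 60 shared no exon base with another gene and 16 shared over 20% of their exon bases. The libraries did not keep the strand, so reads from a LINC gene and from a partner on the other strand cannot be told apart. A search of the transcripts against the genome found other loci with at least 95% identity over 80% of the transcript for 2 genes, LINC00431 with 1 such locus and LINC01145 with 3, and the counts of these 2 are uncertain. The median span was 18403 bases, from 437 to 231539, and the median distance to the nearest protein-coding gene was 35243 bases.

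All 125 genes were detected in all 21 libraries, with at least 13 counts each, and all passed the filter on low counts. Total counts per library ran from 97612207 to 112229052. The LINC genes together took 0.0821% ± 0.00025 (SD, n = 3) of all counts in DMSO, 0.0836% ± 0.00083 with lapatinib and 0.0846% ± 0.0017 with nilotinib. They took 0.0729% ± 0.00071 with 0.1 µM THZ531, 0.0655% ± 0.0023 with 1 µM THZ531, 0.0625% ± 0.0018 with the lapatinib combination and 0.0621% ± 0.0016 with the nilotinib combination. The 3 libraries of each THZ531-treated group all lay below all 3 DMSO libraries. These are shares of raw totals, without the scaling factors (TMM) that the fold changes below use. Those factors were 1.09 to 1.11 in DMSO and 0.867 to 0.921 with 1 µM THZ531 and the combinations. On that scale the falls in these 3 groups would be smaller. The factors with 0.1 µM THZ531 were 1.07, near those in DMSO. The order of the raw shares among the THZ531-treated groups therefore does not carry over to that scale. The 10 most read members held 47.6% of the members' counts, so that share follows a few genes. Group means stayed at 50 counts or more in every group for 98 members. In DMSO 5 members had a mean under 50 (LINC00472, LINC00887, LINC01145, LINC01311 and LINC01730), so that these owed their place in the selection partly to groups in which they were higher. LINC01311, LINC01145 and LINC01730 were under 50 on average over the 4 groups other than the strong treatments, and the first and last of them count among the risers below although the selection required them to be higher there. In the other direction 13 members were under 50 on average over the strong treatments, LINC00431 and LINC02604 among them. These owed their place in the selection to the other groups, so their falls there are a description. At 0.1 µM THZ531 LINC01711 and LINC02604 had means of 30.0 and 44.3 counts, and the same limit applies to their falls at that dose. The coefficient of variation within a group had a median of 10.3%, of 6.6% in the 25 most read members and of 17.3% in the 25 least read.

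Levels of single genes are given as CPM, edgeR's library-size-scaled count (cpm function, TMM factors applied). The marker levels in this paragraph are an exception and are CPM on total counts, without TMM factors. Of the markers of a mesenchymal line, vimentin (VIM) was at 7510 and COL1A1 at 8840 CPM in DMSO. Markers of luminal or HER2-type lines were uneven: ERBB2 was at 41.2 CPM in DMSO, GATA3 at 19.2 and FOXA1 at 4.55, while CDH1 ranged from 12 to 41 counts over the libraries, ESR1 from 9 to 59, and KRT19, EPCAM and PGR had at most 10 counts in any library. Among blood and endothelial markers PTPRC was at 1.16 CPM in DMSO, PECAM1 ranged from 23 to 67 counts and VWF from 2 to 32, and CD3E and HBB had at most 10 counts in any library.

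Levels between genes can be compared only per length, and a usable exon length was at hand for 85 members. Per kilobase of GENCODE exon the highest mean over all libraries was that of LINC01444 with 29.6 CPM per kb, ahead of LINC01116 with 9.54, LINC01605 with 8.70 and LINC00997 with 5.36. For 9 further genes with no usable length only plain CPM over all libraries can be given, which ranks them neither against these values nor against each other: 71.3 for LINC00674, 58.8 for LINC01287, 28.3 for LINC01278, 27.3 for LINC02693, 23.1 for LINC00958, 15.2 for LINC00941, 13.1 for LINC00623, 12.7 for LINC03027 and 11.2 for LINC00662. On that plain scale LINC01116 was at 44.2, LINC01605 at 20.9 and LINC00641 at 16.2. The much-read genes did not respond alike. In DMSO LINC00674 was at 62.7, 59.4 and 58.6 CPM, and with the lapatinib combination at 84.9, 81.6 and 91.2, a log2 fold change (FC) of 0.51. LINC01278 went from 21.5 to 22.0 CPM in DMSO to 35.9 to 43.0 with that combination, a log2 FC of 0.86. LINC02693, in contrast, went from 35.5 to 37.7 CPM to 8.89 to 9.82, a log2 FC of -1.96. LINC00623, which shares 13.7% of its exon bases with genes on the opposite strand, LINC00941, whose exon bases all lie in other genes of its strand, and LINC03027 had log2 FCs between -0.10 and 0.07 there and did not pass the test.

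**Figure D1:**
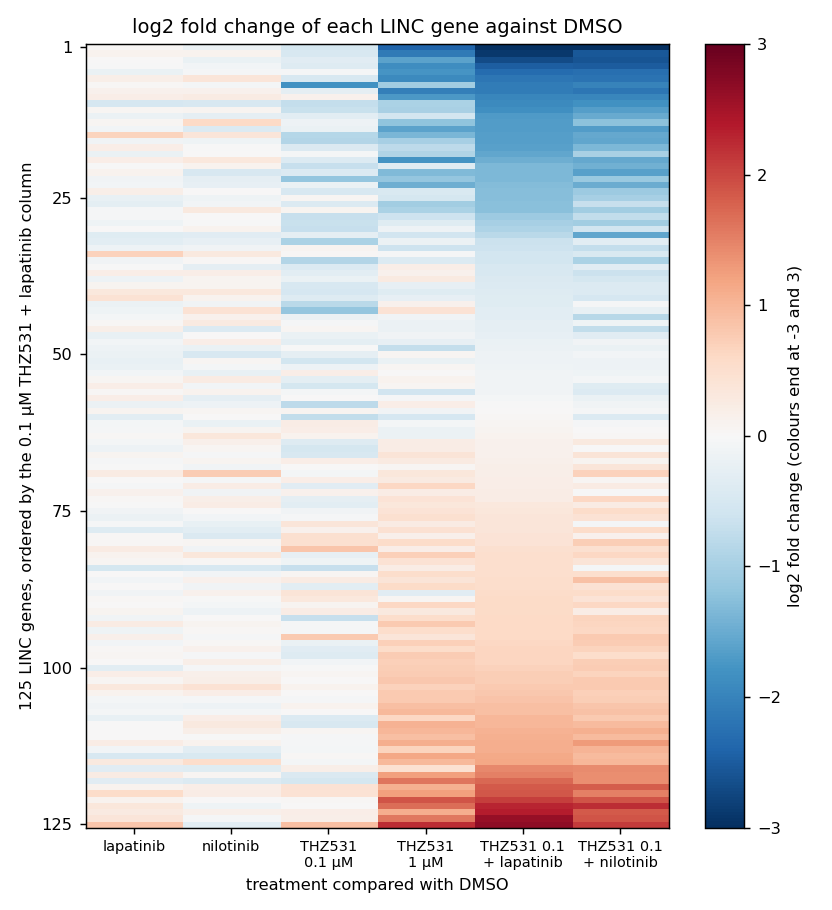
Log2 fold change of the 125 LINC genes (rows, ordered by the lapatinib combination) against DMSO in the 6 treatments (columns), from blue (lower) to red (higher), with colours ending at -3 and 3. The lapatinib and nilotinib columns are nearly white, and the columns of 1 µM THZ531 and both combinations run from blue at the top to red at the bottom, with 18 to 28 called falls and 12 to 17 called rises.

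Genes were tested with edgeR's quasi-likelihood test, p was adjusted by Benjamini-Hochberg over 16036 genes, and a call needed an adjusted p under 0.05 and a log2 FC beyond 1 in size. With the lapatinib combination the 28 falls and 17 rises stood against 21.3% lower and 7.9% higher among all genes tested. The nilotinib combination gave 27 falls and 13 rises, with 20.8% and 6.54% of all genes, and 1 µM THZ531 gave 18 falls and 12 rises, with 18.9% and 5.77%. As shares of the 125, these are 22.4%, 21.6% and 14.4% lower and 13.6%, 10.4% and 9.6% higher. The share lower was thus close to the background in both combinations and under it at 1 µM THZ531, and the share higher was above it in each case. Protein-coding genes in the members' range of mean counts (8911 genes) were lower in 28.6%, 28.0% and 26.6% and higher in 3.92%, 2.91% and 1.78%, while other long noncoding RNAs with a mean count of at least 50 (496 genes) were lower in 14.5%, 14.3% and 9.48% and higher in 15.9%, 12.3% and 11.7%. The median log2 FC of the members was 0.10, -0.03 and 0.155, against -0.01 for all genes in each comparison.

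These 3 comparisons share the DMSO libraries, and each was fitted on its own contrast. In all, 30 members were lower in at least 1 of them and 17 in all 3. Rises came to 17 in at least 1 and 10 in all 3. No member was called in both directions, and 78 were called in none. Of all genes tested 15.3% were lower and 4.2% higher in all 3. The shares of all genes called in at least 1 or in none were not counted. The size of the split depends on the scaling. On a scale set by the 13 mitochondrially encoded mRNAs, members lower and higher were 42 and 8, 43 and 6, and 32 and 5. With upper-quartile scaling they were 27 and 21, 22 and 19, and 14 and 18. Among members falls outnumbered rises in all of these except 1 µM THZ531 with upper-quartile scaling. Over all genes tested the counts were 6227 and 550, 5902 and 493, and 5357 and 494 on the mitochondrial scale. With the upper quartile the counts over all genes were 2934 and 1854, 2885 and 1389, and 2364 and 1439. Against TMM, the mitochondrial scale moved the log2 FC of the median gene by -0.68, -0.62 and -0.54 and the upper quartile by 0.16, 0.14 and 0.20.

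Among the genes that fell, LINC00942 (Entrez 100292680, chr12:1500491-1504424, plus strand) had the lowest log2 FC in each of the 3 treatments. Its CPM was 6.77, 6.48 and 6.42 in DMSO and 4.79, 4.09 and 4.67 with 0.1 µM THZ531. It was 1.36, 1.25 and 1.13 with 1 µM THZ531, 0.568, 0.908 and 0.991 with the lapatinib combination and 0.432, 0.627 and 0.759 with the nilotinib combination. The groups did not overlap, apart from the 2 combinations with each other. The log2 FC was -2.99 ± 0.17 (SE), -3.43 ± 0.18 and -2.39 ± 0.17 for the lapatinib combination, the nilotinib combination and 1 µM THZ531, with adjusted p of 5.47e-12, 1.28e-12 and 1.25e-10 (edgeR's quasi-likelihood test). Lapatinib (6.22, 7.28 and 6.61 CPM) and nilotinib (5.85, 5.23 and 6.33 CPM) overlapped or nearly met the DMSO range.

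LINC00339 (chr1:22025191-22031224, plus strand) shares 51.0% of its exon bases with other genes, the antisense CDC42-AS1 among them. It stood at 10.8, 10.4 and 12.1 CPM in DMSO, and at 1.66, 1.41 and 1.41 CPM with the lapatinib combination, 1.94, 1.86 and 1.92 with the nilotinib combination and 2.19, 2.72 and 2.72 with 1 µM THZ531. Every library of the 3 strong treatments was below every other library. The log2 FC was -2.89 ± 0.11, -2.54 ± 0.11 and -2.13 ± 0.10 (SE).

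LINC00294 (chr11:33076150-33079454, plus strand) has 17.4% of its exon bases in common with other genes, including CSTF3 on the opposite strand. It was at 5.56, 7.30 and 5.50 CPM in DMSO, at 0.797, 1.09 and 0.980 with the lapatinib combination and at 2.21, 2.03 and 1.76 with 1 µM THZ531. Its 3 values with the lapatinib combination lay below those with 1 µM THZ531, a log2 difference of -1.06 ± 0.25 (SE, adjusted p = 0.0025 by edgeR's quasi-likelihood test). Without the first lapatinib combination library that difference was -0.95, and without the first 1 µM THZ531 library -0.99, both under the size limit.

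LINC01234 (chr12:113744577-113773683, minus strand) was at 3.75, 3.45 and 3.86 CPM in DMSO, 0.754, 0.853 and 0.835 with the lapatinib combination, 0.626, 0.864 and 0.902 with the nilotinib combination and 0.913, 1.19 and 0.834 with 1 µM THZ531, so the strong treatments overlapped each other and none overlapped DMSO. LINC00958 (chr11:12979534-12989548, minus strand), 1 of the most read members, fell from 35.0 to 37.0 CPM in DMSO to 6.67 to 7.57 with the lapatinib combination, and 0.1 µM THZ531 left it at 34.1 to 35.5. LINC00431 (chr13:110966027-110990602, plus strand) had a log2 FC of -2.47, -2.49 and -1.86 in the 3 treatments, but all its annotated exon bases lie in another noncoding gene of the same strand. It met the count limit through the groups other than the strong treatments, so its falls are a description. A further 2 genes were among the 6 largest falls with 1 µM THZ531 but not among those with the combinations. LINC00847 (chr5:180830957-180835726, plus strand) shares 41.9% of its exon bases with genes on the opposite strand, HEIH among them. It went from 8.18 to 8.90 CPM in DMSO to 1.93 to 2.14 with 1 µM THZ531, and LINC01119 (chr2:46827864-46859006, plus strand) from 12.3 to 13.7 CPM to 3.5 to 4.0. Both also fell with the lapatinib combination (log2 FC -2.09 and -1.45) and the nilotinib combination (-2.18 and -1.55).

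Among the genes that rose, LINC00472 (chr6:71407864-71420745, minus strand), known as a tumour suppressor RNA in breast cancer, had the highest log2 FC with the lapatinib combination. It was at 0.435, 0.268 and 0.323 CPM in DMSO, 2.12, 2.31 and 2.19 with the lapatinib combination, 1.39, 1.59 and 1.46 with the nilotinib combination and 1.96, 1.36 and 1.47 with 1 µM THZ531. The values with 0.1 µM THZ531 alone were 0.533, 0.777 and 0.619, above every DMSO value. Those with lapatinib alone, 0.773, 0.443 and 0.618, also lay above every DMSO value but did not pass the adjusted p. Nilotinib alone gave 0.271, 0.230 and 0.320. The log2 FC was 2.68 ± 0.22 (SE), 2.11 ± 0.22 and 2.22 ± 0.22 in the strong treatments and 0.91 ± 0.23 at 0.1 µM (adjusted p = 0.0202 by edgeR's quasi-likelihood test). Its GENCODE exons share 4.0% of their bases with other genes.

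LINC01003 (chr7:152464124-152465545, plus strand) was at 2.23, 2.09 and 2.05 CPM in DMSO and at 12.8, 13.2 and 12.7 with the lapatinib combination. It was at 7.34, 8.08 and 8.19 with the nilotinib combination and 6.64, 5.48 and 6.91 with 1 µM THZ531. The lapatinib combination therefore gave the highest values of all groups, with no overlap. The difference from 1 µM THZ531 was 1.02 ± 0.12 on the log2 scale (SE, adjusted p = 4e-06 by edgeR's quasi-likelihood test), and the difference from the nilotinib combination 0.71 ± 0.12 (adjusted p = 0.00488).

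LINC00662 (chr19:27790493-27793940, minus strand), whose span overlaps LINC02987 on the opposite strand, was at 5.14, 4.57 and 5.76 CPM in DMSO, 26.9, 25.4 and 26.3 with the lapatinib combination, 18.9, 18.2 and 18.3 with the nilotinib combination and 12.8, 8.24 and 11.9 with 1 µM THZ531. The order of the 3 strong treatments had no overlap, and the lapatinib combination exceeded 1 µM THZ531 by 1.26 ± 0.15 on the log2 scale (SE). LINC01730 (chr20:3808494-3812434, plus strand), read at only 0.181 to 0.258 CPM in DMSO, was at 0.875 to 1.15 with the lapatinib combination and 0.756 to 1.30 with the nilotinib combination. LINC01311 (chr22:19171706-19172832, plus strand) had log2 FCs of 2.08, 1.89 and 1.89, from 0.216 to 0.281 CPM in DMSO, and shares 15.1% of its exon bases with a noncoding gene on the opposite strand. Since LINC01730 and LINC01311 reached the count limit only through the strong treatments, their higher values there are a description. LINC01139 (chr1:238480384-238486017, minus strand), the gene of the kinase-binding RNA LINK-A, rose by 1.85, 1.52 and 1.24, but the rise at 1 µM THZ531 was 0.98 with scaling by library size and 0.69 on the mitochondrial scale. LINC01138 (chr1:148432959-148459920, minus strand), known to bind the arginine methyltransferase PRMT5, rose by 1.83, 1.83 and 1.07, and 21.6% of its exon bases lie in other genes, some of which are on the opposite strand. LINC01004 (chr7:104981747-104991165, minus strand) rose by 1.73, 1.40 and 1.61.

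The called genes differed in length. With the lapatinib combination the median RefSeq span was 4809 bases for the 17 that rose, 14395 for the 28 that fell and 22317 for the 80 not called. With the nilotinib combination the 13 that rose had a median span of 3941 bases, and with 1 µM THZ531 the 12 that rose had 4787. Among all genes tested with a RefSeq span the risers were the shortest group too, with medians of 7423, 7692 and 6434 bases. The genes not called had 29536, 29513 and 29829. Those that fell were close to these, at 30530, 28905 and 28381. Restricting the set to the 55 members with no shared exon base, no overlapping coding gene and no near-identical copy left 16 falls and 6 rises with the lapatinib combination, 17 and 5 with the nilotinib combination and 10 and 3 with 1 µM THZ531. Over all genes tested the shares lower and higher were 21.3% and 7.9%, 20.8% and 6.54%, and 18.9% and 5.77%. In this subset the share lower was thus above the background in both combinations. The share higher was not above it at 1 µM THZ531. The median log2 FC of the subset was -0.19, -0.23 and 0.057.

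With 0.1 µM THZ531 alone, 3 members were called lower and 0 higher, where the background was 0.742% and 0.143% of all genes (edgeR). The higher count was 0 with DESeq2 too, with 12 members higher at an unadjusted p under 0.05. Many smaller changes passed the adjusted p alone: 25 members were lower and 6 higher, with 4.31% of all genes lower and 1.78% higher by the same rule. The share lower was 20% of the members, 14.5% of other long noncoding RNAs with a mean count of at least 50 and 5.26% of coding genes in the members' count range. No test of that difference was run. In all 25 the 3 treated libraries lay below the 3 DMSO libraries. The adjusted p that picked the 25 rests on these same libraries, so this separation adds no support. Its share over all genes was not counted. The count of 25 was 13 without the second 0.1 µM THZ531 library, 14 without the third, 16 without the first, 14 without the first DMSO library and 15 without the second, and 9 on the mitochondrial scale.

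**Figure D2:**
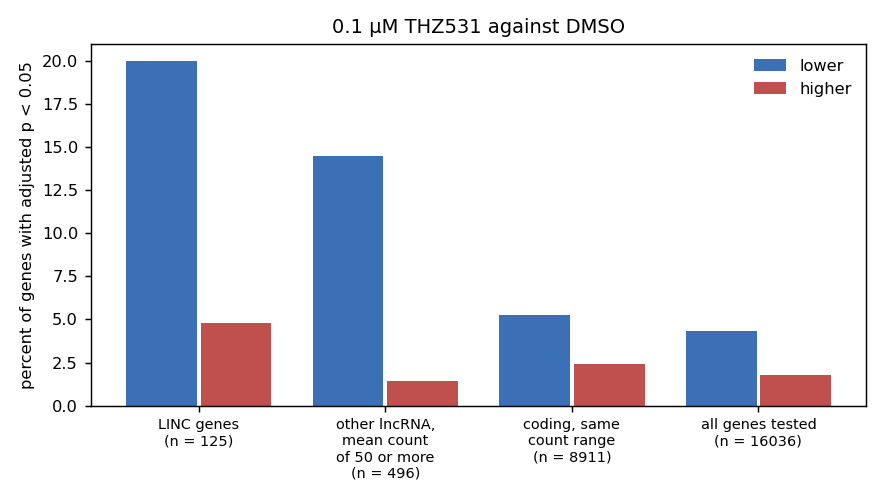
Share of genes with an adjusted p under 0.05 and a lower (blue) or higher (red) level with 0.1 µM THZ531 than in DMSO, in percent, for the 125 LINC genes, 496 other long noncoding RNAs, 8911 coding genes of the same count range and all 16036 genes tested. The share lower falls from 20% through 14.5% and 5.26% to 4.31%.

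LINC01257 (chr12:131165011-131212931, plus strand) had the lowest log2 FC at the low dose. It was at 2.63, 2.48 and 2.1 CPM in DMSO, 0.550, 0.655 and 0.857 with 0.1 µM THZ531 and 1.20, 1.20 and 1.09 with 1 µM THZ531. The 1 µM values lay above the 0.1 µM values and below those in DMSO, with no overlap. The log2 FC was -1.81 ± 0.16 (SE) at 0.1 µM and -1.05 ± 0.16 at 1 µM, a difference of 0.76 ± 0.17 between the doses. The gene is named for its low values at 0.1 µM, which that difference uses again, so it is a description. Both combinations stayed near the low dose, at 0.445 to 0.634 and 0.551 to 0.638 CPM.

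LINC01711 (chr20:58634772-58635738, plus strand) was at 0.5, 0.716 and 0.570 CPM in DMSO, 0.186, 0.288 and 0.318 with 0.1 µM and 0.829, 0.712 and 0.877 with 1 µM THZ531, lying apart from DMSO at the low dose and meeting its range at the high dose. It fell by 1.17 on the log2 scale at 0.1 µM, and the doses differed by 1.60 ± 0.22 (SE). Without the first 0.1 µM library the fall was 0.97 and under the size limit. LINC02604 (chr7:66904120-66906297, plus strand), at 0.774, 1.21 and 0.638 CPM in DMSO and 0.337, 0.376 and 0.460 with 0.1 µM THZ531, was close to the threshold (adjusted p = 0.0434 by edgeR's quasi-likelihood test) and lost its call when any 1 of 10 single libraries was left out. LINC01711 and LINC02604 met the count limit through groups in which they were higher than at 0.1 µM, so both falls are a description.

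The 25 genes that were lower at 0.1 µM were taken for low values in libraries that the comparison of the doses uses again, so their counts there are a description. By the adjusted p alone 12 of the 25 were higher at 1 µM than at 0.1 µM and 6 lower, where 44.8% of the members and 34.3% of all genes were higher and 23.2% and 35.9% lower. Against DMSO at 1 µM, 13 of the 25 were lower and 1 was higher, where 28.0% of the members and 36.8% of all genes were lower and 36.8% and 33.1% higher. Their median log2 FC was -0.69 at 0.1 µM, the contrast they were taken from, and -0.39 at 1 µM, -0.99 with the lapatinib combination and -0.94 with the nilotinib combination. All these contrasts share the DMSO libraries.

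A set of 4 genes, chosen after their values were seen, show the kinds of pattern. LINC01588 (chr14:49981669-50007520, minus strand) was at 1.67, 1.67 and 1.74 CPM in DMSO, 0.950, 1.03 and 1.16 at 0.1 µM and 2.05, 2.72 and 2.54 at 1 µM, below DMSO at the low dose and above it at the high dose with no overlap. The log2 FC was -0.69 ± 0.14 (SE) and 0.52 ± 0.13, and the difference between doses 1.22 ± 0.14. LINC01963 was at 9.49, 11.1 and 9.08 CPM in DMSO, 5.18, 4.75 and 5.35 at 0.1 µM and 8.86, 9.38 and 7.87 at 1 µM, so only the low dose lay apart. LINC00205, at 15.6, 16.1 and 14.7 CPM in DMSO, had similar values at 0.1 µM (8.98, 8.03 and 8.19) and 1 µM (7.57, 8.66 and 6.93). LINC00630, 1 of the 6 that were higher at the low dose, was at 1.73, 1.60 and 1.36 CPM in DMSO, 2.91, 2.44 and 2.68 at 0.1 µM and 1.97, 2.15 and 1.96 at 1 µM.

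**Figure D3:**
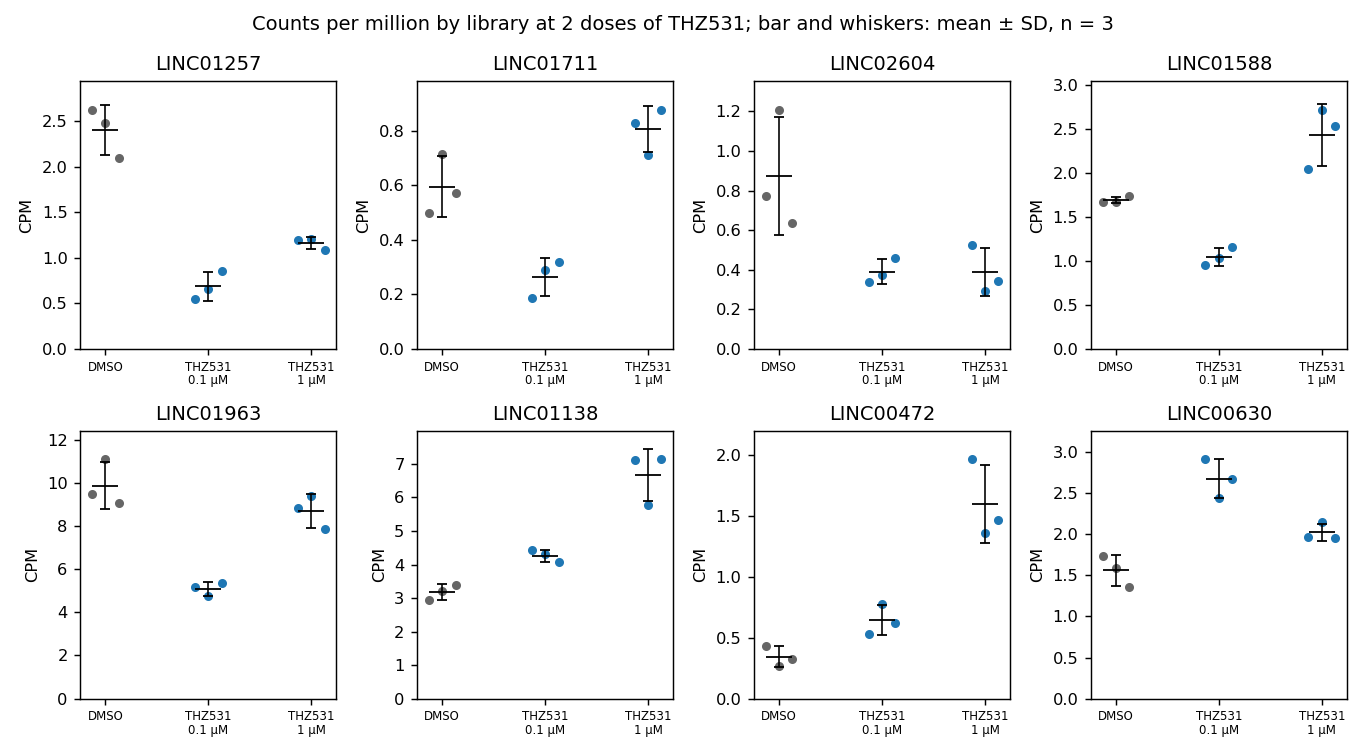
CPM in each library (points, 3 per group) with the mean and SD (bar and whiskers) in DMSO and at 0.1 and 1 µM THZ531 for 8 LINC genes. LINC01257, LINC01711, LINC01588 and LINC01963 are lowest at 0.1 µM, LINC02604 is below DMSO at both doses, LINC01138 and LINC00472 rise with the dose, and LINC00630 is highest at 0.1 µM.

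Between the doses themselves, 13 members were lower and 14 higher at 1 µM than at 0.1 µM, with 17.6% and 6.83% of all genes. The largest differences were those of LINC01004, from 0.417, 0.332 and 0.486 CPM to 1.87, 2.05 and 1.56, of LINC00942 and of LINC01311. The higher count is the one that moves most with the scaling, to 35 with the upper quartile and 6 on the mitochondrial scale. Over all genes tested it moved the same way, from 1096 to 1860 with the upper quartile and 514 on the mitochondrial scale.

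Lapatinib alone changed 0 members in either direction by edgeR's quasi-likelihood test and 0 by DESeq2, with 7 lower and 7 higher at an unadjusted p under 0.05. The background was 0.0125% lower and 0.0374% higher among all genes, and 0.0561% and 0.256% by the adjusted p alone. Nilotinib alone also called 0 members by both tools, with 11 lower and 11 higher at an unadjusted p under 0.05. Here the background was 0.0125% and 0.0249%, and 0.0998% and 0.243% by the adjusted p alone. The adjusted p alone left 1 member higher with nilotinib, LINC01605, at 25.6, 26.0 and 26.6 CPM in DMSO and 43.3, 37.0 and 37.7 with nilotinib, a log2 FC of 0.60 ± 0.10 (SE, adjusted p = 0.012 by edgeR's quasi-likelihood test). The same gene fell by 1.68, 1.24 and 1.22 on the log2 scale in the lapatinib combination, the nilotinib combination and 1 µM THZ531.

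The effect of 0.1 µM THZ531 in the presence of a tyrosine kinase inhibitor was compared with its effect without one by an interaction term. With lapatinib the effect was more negative for 21 members and more positive for 17 (18.3% and 6.7% of all genes), and with nilotinib for 14 and 15 (17.8% and 5.51%). The largest terms were those of LINC01004 (2.60 ± 0.30, SE), LINC00339 (-2.53 ± 0.15) and LINC00942 (-2.49 ± 0.23) with lapatinib, and of LINC00942 (-2.72 ± 0.23), LINC01004 (2.34 ± 0.30) and LINC01730 (2.33 ± 0.42) with nilotinib, the last a gene whose selection already required it to be higher in the strong treatments. For LINC01004 the low dose alone gave 0.417, 0.332 and 0.486 CPM and lapatinib alone 0.530, 0.479 and 0.415, against 1.67, 1.97 and 2.31 for both together. The single agents overlapped the DMSO range of 0.484 to 0.802 CPM, and the combination lay above it in all 3 libraries. LINC01257 and LINC01287, which fell at the low dose alone, had terms of -0.35 and 0.003 with lapatinib that did not pass the test.

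The combinations differed little from 1 µM THZ531 in these genes. With lapatinib 3 members were lower and 2 higher (1.82% and 1.32% of all genes), namely LINC00641, LINC00294 and LINC01257, and LINC00662 and LINC01003. LINC00641 (chr14:21200079-21206900, minus strand) was at 24.1, 24.1 and 21.7 CPM in DMSO, 15.6, 18.3 and 13.8 with 1 µM THZ531 and 7.63, 6.75 and 7.27 with the lapatinib combination, with no overlap and a difference of -1.14 ± 0.10 (SE) between the last 2. With nilotinib 2 were lower, LINC00942 and LINC02475, and 0 higher by edgeR and DESeq2 (1.66% and 0.898% of all genes), where 11 were higher at an unadjusted p under 0.05. LINC02475 was at 3.95, 4.84 and 3.8 CPM with 1 µM THZ531 and 2.46, 1.97 and 1.63 with the nilotinib combination, a difference of -1.05 ± 0.16 (SE). These 2 calls are near the size limit: without the third nilotinib combination library or the second 1 µM THZ531 library that of LINC02475 became -0.92 and -0.94, and without the first library of either group that of LINC00942 became -0.85 and -0.97. Between the combinations 0 members were called by edgeR and 0 by DESeq2, with 10 lower and 12 higher at an unadjusted p under 0.05, and the background was 0.0125% and 0.0499%. By the adjusted p alone, where 0.736% and 0.73% of all genes passed, LINC01605 was lower with lapatinib than with nilotinib and LINC00938 and LINC01003 were higher.

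The nearest protein-coding gene lay within 10000 bases of 34 members, and 31 of these neighbours were tested. With the lapatinib combination 12 of the 31 neighbours were called lower and 1 higher, and 17 of the 31 pairs had the same sign. Among the 64 tested neighbours farther away 11 were lower and 2 higher, and 26 pairs had the same sign. Over all protein-coding genes tested 22.5% were lower and 5.26% higher. Spearman's rho between member and neighbour was -0.01 over these 31 pairs and -0.10 over the 64 pairs farther apart, 0.10 and -0.14 with the nilotinib combination and 0.08 and -0.13 with 1 µM THZ531, given as a description over pairs measured in the same libraries. Single pairs, chosen after their values were seen, went both ways. LINC00847 and ZFP62, which overlap on opposite strands, had log2 FCs of -2.09 and -2.04, and reads of the 2 cannot be told apart in these unstranded libraries. LINC01730 rose by 2.29 while CDC25B, a cell cycle phosphatase gene 2379 bases away, fell by 1.69. LINC00641 fell by 1.69 while HNRNPC, a splicing factor gene 2247 bases away on the same strand, rose by 0.64. LINC00942 fell by 2.99, and ERC1, 4558 bases away, by 0.58. LINC01560, inside ZNF41 on the opposite strand, had a log2 FC of -0.06 while ZNF41 fell by 3.38. LINC00205 starts 157 bases from POFUT2, head to head, and had a log2 FC of -1.64 where POFUT2 had -0.08.

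**Figure D4:**
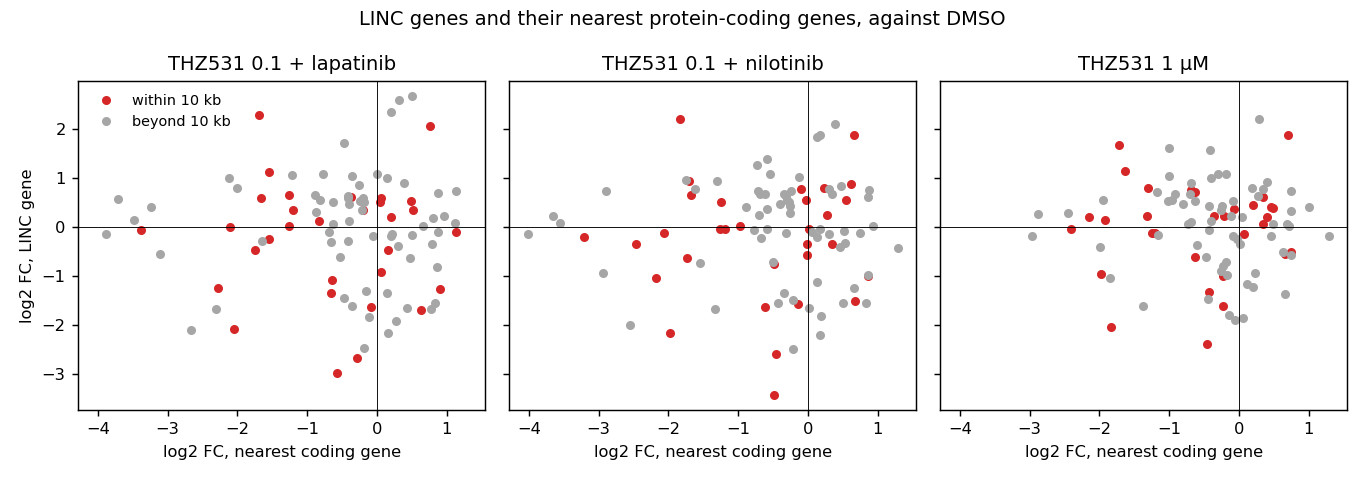
Log2 fold change against DMSO of each LINC gene (vertical) and of its nearest protein-coding gene (horizontal) in both combinations and with 1 µM THZ531, with neighbours within 10 kb in red and farther ones in grey. The points spread over all 4 quadrants, and 17 of the 31 close pairs had the same sign with the lapatinib combination.

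Genes of the nuclear RNA exosome and its adaptors, which degrade many noncoding transcripts, were followed as a list. Of 24 tested, 10 were lower with the lapatinib combination, 8 with the nilotinib combination and 9 with 1 µM THZ531, where 21.3%, 20.8% and 18.9% of all genes were lower, and DESeq2 gave 8, 8 and 9. The count higher was 0 in all 3 by edgeR and by DESeq2, with 4, 5 and 6 of them higher at an unadjusted p under 0.05. The medians of the list were -0.67, -0.62 and -0.70, against -0.01 for all genes. The adaptor ZCCHC8 was at -2.92, -2.77 and -2.17, the core subunit EXOSC3 at -2.47, -2.27 and -1.99 and the poly(A) RNA adaptor ZC3H3 at -2.31, -2.24 and -1.81. Whether these falls have a part in the rises among the LINC genes was not tested. Of 31 tested long noncoding RNAs with names of their own, 1 was lower and 6 higher with the lapatinib combination, 2 and 6 with the nilotinib combination and 1 and 5 with 1 µM THZ531, where 7.9%, 6.54% and 5.77% of all genes were higher, with a list median of 0.59, 0.57 and 0.55. TUG1 had log2 FCs of -2.15, -1.98 and -1.33. RPPH1, the RNA subunit of RNase P, which normally has no poly(A) tail, had 5.81, 5.49 and 4.89 from 0.193 CPM (without TMM factors) in DMSO. The risers with the lapatinib combination also included MIAT, TERC and UCA1, likewise barely read, at 0.144, 0.0649 and 0.024 CPM in DMSO. CYTOR and PVT1, which rose too, were at 34.6 and 7.29 CPM there, all without TMM factors.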

How the data were processed

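RNA was taken from Hs578T cells as unstranded, poly(A)-selected, paired-end libraries, 3 per group and from independent experiments by the study's account. Per the labels, the authors aligned reads with HISAT2 2.1.0 to GRCh38 and counted them per gene with featureCounts, and they deposited raw counts, 1 column per library and 1 row per Entrez gene; how ambiguous or multi-mapped reads were counted is not given in the sources used here. Gene names came from RefSeq (GRCh38.p14), in which 27745 of 28395 identifiers matched, exons from GENCODE v44, and promoter sequences from RefSeq. Genes were filtered with filterByExpr (16036 left), scaled by TMM and fitted in edgeR 4.0.16 with a group design over all 21 libraries, with the quasi-likelihood test adjusted by Benjamini-Hochberg over all genes. DESeq2 1.42.0 served as an alternative. The fit was tested on simulated counts. An exon length was used where the GENCODE span was 0.5 to 2 times the RefSeq span. Near-identical copies were searched with minimap2.

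The genes and lists described here were chosen with earlier results of these data known. Named were, for each strong treatment, the 6 largest rises and 6 largest falls among called members whose libraries did not overlap DMSO; every member called with 0.1 µM THZ531, lapatinib or nilotinib alone; the 10 highest levels (per kb where a length was usable and otherwise plain CPM, so no order was read from them); the 3 members on each side of the count limit; and the 3 largest called differences in each other comparison. Scaling, filter, test, block, membership, size limit, halved counts and each left-out library were varied.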

Additional observations from a re-analysis of the deposited data

Results flagged for a closer look

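The effect of 0.1 µM THZ531 on the LINC genes differed between cells with and without a tyrosine kinase inhibitor, by edgeR's quasi-likelihood test of the interaction. With lapatinib 21 members had a more negative and 17 a more positive effect, against 18.3% and 6.7% of all genes tested, and with nilotinib 14 and 15, against 17.8% and 5.51%. The largest terms on the log2 scale with lapatinib were 2.60 for LINC01004, -2.53 for LINC00339 and -2.49 for LINC00942. With nilotinib they were -2.72 for LINC00942, 2.34 for LINC01004 and 2.33 for LINC01730, which reached the count limit only through the strong treatments, so that its term is a description. LINC00942 and LINC01004 were among the 3 largest with both inhibitors, and the 2 sets of terms share the DMSO and 0.1 µM THZ531 libraries. No explanation was tested.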

How the results depend on the processing

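Counts of called members are given as lower and higher against DMSO unless another comparison is named, and the causes of the shifts were not tested. Of 856 recomputed counts 783 stayed within 1.5 times the reported one. On library size alone the risers became 10 with the lapatinib combination and 5 with 1 µM THZ531, and 8 between the doses of THZ531; against 1 µM THZ531 the lapatinib combination had 5 and 1 and the nilotinib combination 5 lower, and the nilotinib interaction 22 lower. With the upper quartile 35 were higher between doses, the lapatinib combination had 5 and 1 and the nilotinib combination 6 lower against 1 µM THZ531, and 32 and 27 interaction terms were higher with lapatinib and nilotinib. On the mitochondrial scale the lapatinib combination had 8 risers, the nilotinib combination 43 and 6, 1 µM THZ531 32 and 5, the doses 23 and 6, and the 0.1 µM counts by the adjusted p alone 9 and 1; against 1 µM THZ531 the combinations had 5 and 1 and 6 lower, and the interactions 10 higher with lapatinib and 28 and 8 with nilotinib. A fit of only the groups compared gave 1 higher for the nilotinib combination against 1 µM THZ531. With membership at a mean of 100 counts (87 members) the risers were 7 at 1 µM THZ531, 8 between doses and 10 and 9 in the interactions, and 1 fell at 0.1 µM. Without the size limit the lapatinib combination had 47 risers, the nilotinib combination 44 and 46, 1 µM THZ531 35 and 46, 0.1 µM THZ531 25 and 6, nilotinib alone 1 higher, the doses 29 and 56, the combinations against 1 µM THZ531 24 and 11 and 23 and 8, the combinations against each other 1 and 2, and the interactions 43 higher with lapatinib and 27 and 41 with nilotinib.

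Leaving out 1 library gave 27 to 30 and 14 to 17 with the lapatinib combination, 24 to 28 and 12 to 15 with the nilotinib combination, 16 to 21 and 12 to 14 at 1 µM THZ531, 2 to 4 and 0 to 1 at 0.1 µM THZ531, 13 to 27 and 3 to 7 at 0.1 µM by the adjusted p alone, 12 to 14 and 13 to 19 between doses, 2 to 5 and 1 to 4 for the lapatinib combination against 1 µM THZ531 and 1 to 6 and 0 to 2 for the nilotinib combination, and 18 to 21 and 17 to 21, and 11 to 16 and 15 to 20, for the interactions. The counts against 1 µM THZ531 turned on single libraries: the lapatinib combination had 5 lower without its first library or the third 1 µM THZ531 library, 1 higher without the second and 4 higher without the third 1 µM THZ531 library. The nilotinib combination had 6 lower and 1 higher without its first library, 5 and 2 without the third, 1 lower without the second and 1 higher without the first 1 µM THZ531 library. At 0.1 µM THZ531 1 member was higher without the first DMSO library, the third DMSO library or the first 0.1 µM library, and by the adjusted p alone 3 were higher without the second library of either group. Of 53 named gene results 6 lost their call under at least 1 alternative and 0 changed sign.

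Replicate numbers were shared by the groups and may mark the independent experiments the study describes, but they were not taken as pairing the libraries: 36 of 63 same-numbered pairs had deviations correlated over 0.1 (mean 0.15, from -0.83 to 0.89, over 8794 genes, against -0.069 for pairs with other numbers), and 8 of 21 libraries correlated best with their own number. Adding the number to the design as a replicate block gave 28 and 17, 27 and 12, and 18 and 12 for the strong treatments, and no count moved by more than 1. Genes under about 1 CPM, such as LINC01730 and LINC02604, rest on few counts. The adjusted p counts at 0.1 µM were recomputed after the data had been seen.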
